A study of Mus musculus with 14 samples.

Results

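The clustered protocadherin genes are 57 of the 21887 protein-coding mouse genes in the annotation used. They are the protein-coding genes on chromosome 18 whose RefSeq symbol begins with Pcdha, Pcdhb or Pcdhg. The rule used position and name only, and no measured value, but it was set with earlier results of these data known. The Pcdha subcluster holds 14 genes, the Pcdhb subcluster 22 and the Pcdhg subcluster 21. Together they span 911.6 kb of GRCm38, at chr18:36930285-37841873. Pcdhgb8 lies among the Pcdhg genes as a transcribed pseudogene and is not a member.

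CUT&RUN cuts out the DNA next to an antibody's target with a tethered nuclease. It was applied to cultured mouse Th1 cells with antibodies to the acetylated histone mark H3K27ac, the DNA-binding protein CTCF and the transcription factor ETS1. Cells of the strain labelled C57BL/6J-Ets1-SE-KO (KO) were set against cells from C57BL/6J mice (WT). In both genotypes naive CD4+ T cells were isolated from spleen and polarized for 6 days on plate-bound anti-CD3 with soluble anti-CD28, IL-12 at 10 ng/mL and IL-2 at 1 ng/mL, and live cells were sorted before the assay. Each of the 3 antibodies had 2 KO and 2 WT libraries, and IgG had 1 library per genotype. By their titles, KO 1 and KO 2 are separate biological replicates, whereas WT 1 and WT 2 are technical replicates of a single biological replicate. For CTCF the deposited names give the WT libraries different numbers, so whether those are technical replicates is uncertain. The ages of the mice, and the extent of the knocked-out element, are not given here.

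Clustered protocadherins are cell-adhesion proteins of the cadherin superfamily, known chiefly from neurons, where each cell expresses its own combination of isoforms and uses it to tell its own branches from those of other cells. Every Pcdha and Pcdhg gene has its own promoter and a large first exon for the outer part of the protein, which is spliced to constant exons shared by the whole subcluster, whereas Pcdhb genes are made of a single such exon. CTCF is known to bind many of these promoters and, with cohesin, to bring a promoter and a distant enhancer together. H3K27ac marks active promoters and enhancers. The C-type genes Pcdhac1, Pcdhac2, Pcdhgc3, Pcdhgc4 and Pcdhgc5 form a class apart in sequence from the other first exons.

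The data were lists of called peaks, one per library. They carry no reads, sequencing depth is therefore unknown, and a gene without a peak is not shown to be unbound. The H3K27ac lists held 26465 and 28647 peaks in KO against 24711 and 24581 in WT. The CTCF lists held 40502 and 39345 peaks in KO against 33144 and 31368 in WT. The ETS1 lists were uneven, with 40705 and 9344 peaks in KO against 14013 and 23419 in WT. IgG gave 285 peaks in KO and 2 in WT, none of them in the protocadherin cluster. In at least 1 library, H3K27ac peaks lay within 10 kb of all 10 T cell markers and of 2 of 10 neuronal markers. Near Ifng they covered 0.727 kb in WT 1 and none in the other libraries, and those near the neuronal gene Slc17a7 lay outside the gene. H3K27ac lengths were summed over the genes of each list with 10 kb on either side. For the T cell list they came to 111 and 100.4 kb in KO against 81.2 and 80.6 kb in WT. The flanks of Cd3g, Cd3d and Cd3e overlap, so peaks they share count more than once in this sum. For the neuronal list the sums were 1.03 and 0.944 kb in KO against 0.918 and 0.977 kb in WT. By the same count, peaks lay near 2 of 5 B cell, 3 of 5 myeloid and 2 of 5 CD8 T or NK genes. They also lay near 2 of 4 erythroid and 1 of 6 epithelial or stromal genes. Lyz2, Cd8a, Rbfox3 and Snap25 had none. The summed lengths were 7.49 and 8.58 kb in KO against 5.79 and 4.26 kb in WT for the B cell list. All but 0.215 kb of this lay within 10 kb of Cd79a but outside the gene, which itself had none. For the myeloid list they were 8.22 and 10.7 kb in KO against 7.07 and 5.80 kb in WT, mostly in the flanks of Csf1r and Cd68. The Csf1r gene itself had 0.408 and 1.22 kb in KO against 0.978 and 1.00 kb in WT. The Cd68 gene itself had 0.691 and 0.879 kb in KO against 0.437 and 0.587 kb in WT. The summed lengths were 1.55 and 1.2 kb in KO against 0.953 and 1.29 kb in WT for the CD8 T or NK list. They were 2.29 and 2.48 kb in KO against 1.63 and 1.53 kb in WT for the erythroid list. The epithelial or stromal list had 10.9 and 10.7 kb in KO against 11.9 and 14.0 kb in WT, all within 10 kb of Pecam1. The part of other cell types in the results was not tested. With 2 libraries against 2, an exact two-sided permutation test cannot go below p = 0.33, and it counts the WT technical replicates as separate.

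Nested Pcdha and Pcdhg genes share their last exons, so peaks were placed by start windows, which ran from 500 bp before to 2500 bp after each gene start. The nearest starts of neighbouring members are 4154 bp apart, so windows did not overlap. The same windows at 17492 other protein-coding gene starts served as the background. Members are related in sequence, and how reads that fit several copies were treated is not stated. Its effect on the peaks was not tested.

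The Pcdha and Pcdhb genes formed a long block without CTCF or H3K27ac peaks in either genotype. None of these 36 genes, from Pcdha1 to Pcdhac2 and from Pcdhb1 to Pcdhb22, had a CTCF peak over its start in any of the 4 CTCF libraries, and none had an H3K27ac peak. Nor was there a peak of either kind elsewhere in the 258.6 kb of the Pcdha subcluster, the 256.4 kb of the Pcdhb subcluster or the 76.1 kb between them. CTCF was called at 54.4% of the other gene starts in at least 1 library and at 36.8% of them in every library. H3K27ac was called at 47.9% of those starts in at least 1 library and at 41.1% in every library.

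The stretch that lacked CTCF in all 4 libraries ran over 840.5 kb, at chr18:36803397-37643909, and held the starts of all 36 Pcdha and Pcdhb genes. By length it ranked 448 among the 47563 stretches between CTCF regions of the genome, so many stretches were longer. By the number of gene edges inside it, 41, it ranked 14. Of the 8 stretches with the most gene edges, 5 began at the olfactory receptor genes Olfr881, Olfr1178, Olfr228 and Olfr765 and the vomeronasal receptor gene Vmn2r30, which belong to other large families of neighbouring sensory genes. The stretch without H3K27ac was nearly the same, at chr18:36794613-37643001 and 848.4 kb long.

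Both stretches ended at Taf7, which encodes a subunit of the general transcription factor TFIID and lies with the mitochondrial carrier gene Slc25a2 between the Pcdhb and Pcdhg genes. At Taf7 all 3 antibodies gave peaks in all 4 libraries. The H3K27ac region there covered 1833 and 1500 bp in KO against 1532 and 1313 bp in WT, so the genotypes overlapped. CTCF covered 357 and 415 bp in KO against 184 and 357 bp in WT. ETS1 covered 370 and 471 bp in KO against 819 and 519 bp in WT, both WT libraries being above both KO libraries.

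**Figure D1:**
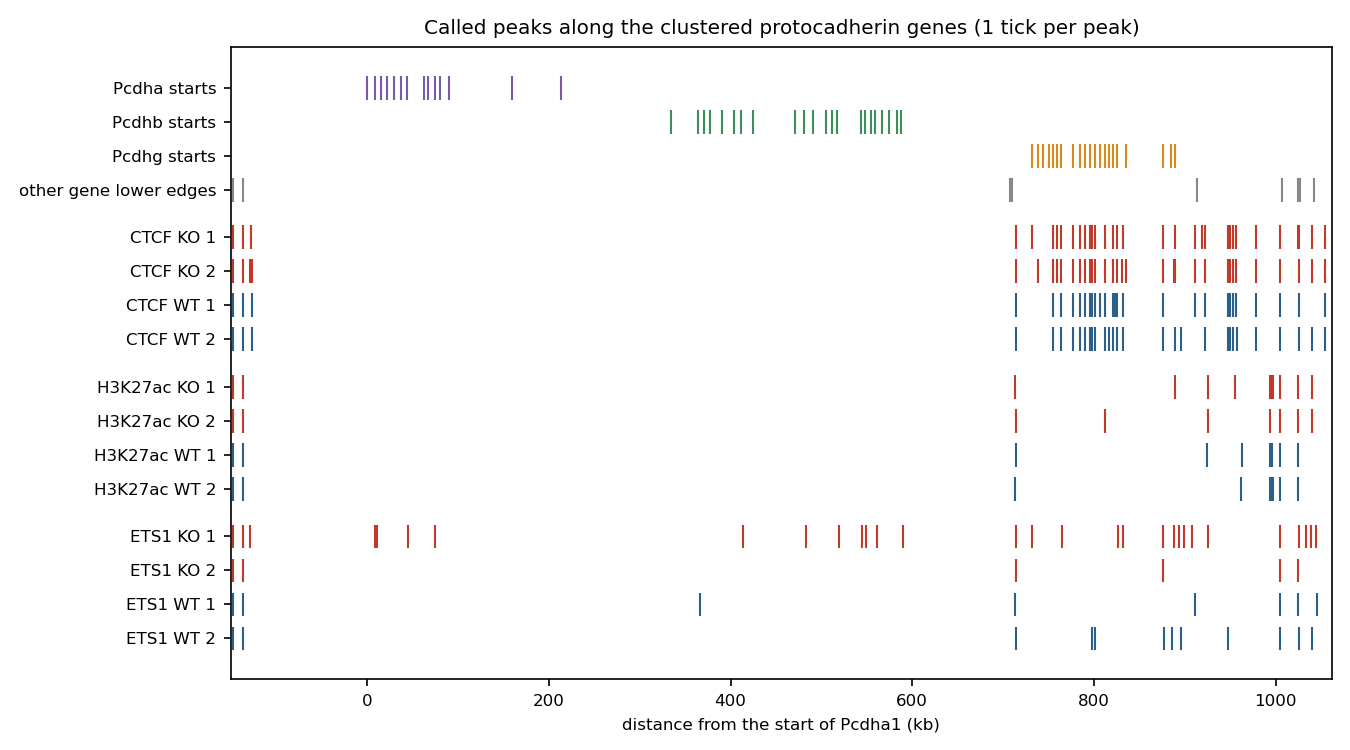
Peaks along the clustered protocadherin genes. The x axis is the distance from the start of Pcdha1 in kb. The upper rows mark the starts of the members and the lower edges of other genes, which need not be their starts. Each lower row marks the peaks of 1 library (KO above WT for each antibody). CTCF ticks are absent over the 36 Pcdha and Pcdhb starts and dense over the Pcdhg starts, and ETS1 KO 1 holds 21 ticks in the cluster against 2 in KO 2.

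The Pcdhg subcluster, next to Taf7, was rich in CTCF. It held 16 and 19 CTCF peaks in KO and 16 in each WT library, within 180.1 kb at chr18:37661775-37841873. That is 88.8 and 105 peaks per Mb in KO and 88.8 per Mb in both WT libraries. Relative to the rest of the genome, the density was 5.97 and 7.30 times as high in KO and 7.30 and 7.71 times as high in WT. The 100 kb beyond the subcluster, which hold Diaph1, a gene for an actin-nucleating formin, had a similar density, with 80 and 70 peaks per Mb in KO and 70 per Mb in both WT libraries.

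CTCF was called over the start of 18 of the 21 Pcdhg genes in at least 1 library, against 54.4% of other gene starts, and over 11 of them in every library, against 36.8%. The 11 were Pcdhga4, Pcdhga5, Pcdhga6, Pcdhga7, Pcdhgb4, Pcdhga8, Pcdhgb5, Pcdhgb6, Pcdhgb7, Pcdhga11 and Pcdhgc3. They comprise 6 of the 12 A-type, 4 of the 6 B-type and 1 of the 3 C-type genes. In gene order, 6 neighbours from Pcdhga5 to Pcdhgb5 formed the longest unbroken run. Pcdhgc5 had a peak in 3 libraries, Pcdhgb2 in 2, and Pcdhga1, Pcdhga2, Pcdhga9, Pcdhga10 and Pcdhga12 in 1 each. Pcdhga3, Pcdhgb1 and Pcdhgc4 had none. At the pseudogene Pcdhgb8 CTCF was called in all 4 libraries.

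**Figure D2:**
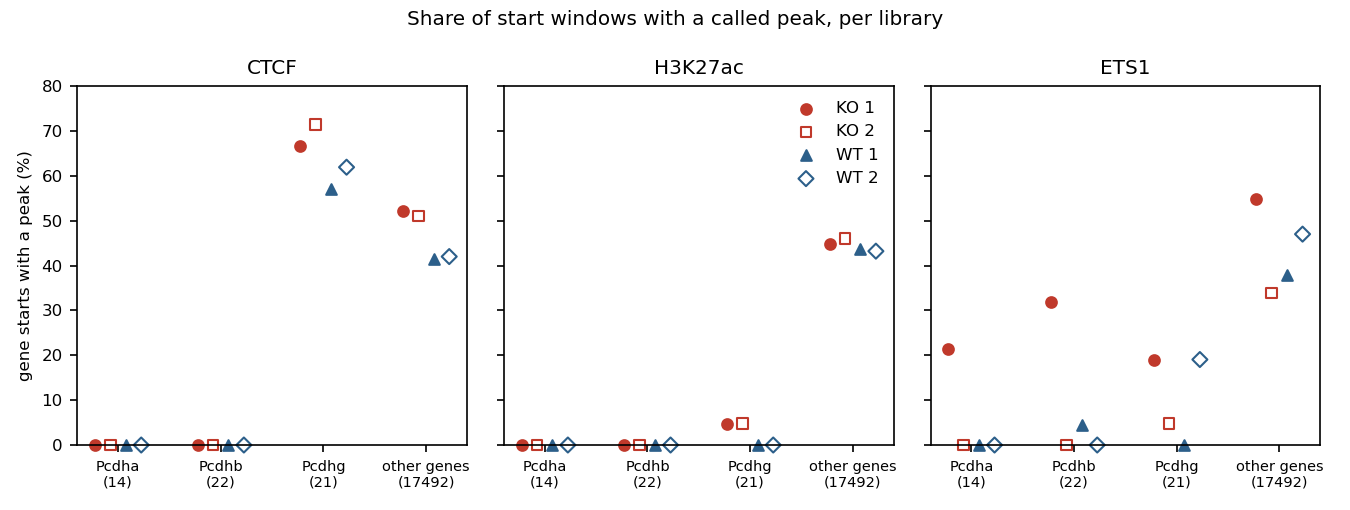
Share of start windows that hold a called peak (y axis, %) for the Pcdha, Pcdhb and Pcdhg genes and all other gene starts (x axis, number of genes in brackets), with 1 point per library. For CTCF the Pcdhg points lie between 57.1 and 71.4% and the Pcdha and Pcdhb points at 0, against 41.6 to 52.1% for other genes.

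The CTCF peaks differed in strength between members. Ranks were taken within each list by the authors' −log10 p, so a top percentage of 5 means that 5% of the peaks of that library were at least as strong, and the fold values are the authors' own for each peak. The strongest peak lay over the start of Pcdhgb6, a B-type gene. Its fold enrichment was 9.17 and 8.93 in KO and 6.91 and 8.81 in WT, and it stood in the top 4.98 and 4.63% in KO and the top 11.3 and 3.42% in WT. Pcdhgb7, the next B-type gene, came second, in the top 15.6 and 9.74% in KO and the top 21.3 and 10.4% in WT.

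Pcdhgb5 lay in the top 17.6 and 31.2% in KO and the top 42.9 and 27.9% in WT. Pcdhgc3, the first of the C-type genes, had the widest CTCF region, in the top 24.1% of both KO lists and the top 45.7 and 42.2% of the WT lists. Pcdhga5 lay in the top 25.9 and 37.7% in KO and the top 34.3 and 42.5% in WT. These 5 genes were the only members whose best peak stayed within the upper 50% of all 4 lists. Pcdhgb7 had a further CTCF peak in WT 1, in the top 90.4%. Most member peaks were weaker than the middle of their list, with a median top percentage of 62.9 and 59.2 in KO and 65.5 and 69.4 in WT. Of the 15 and 16 member peaks in KO, 7 and 5 lay in the upper 50%, and of the 14 in each WT library, 5 did.

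**Figure D3:**
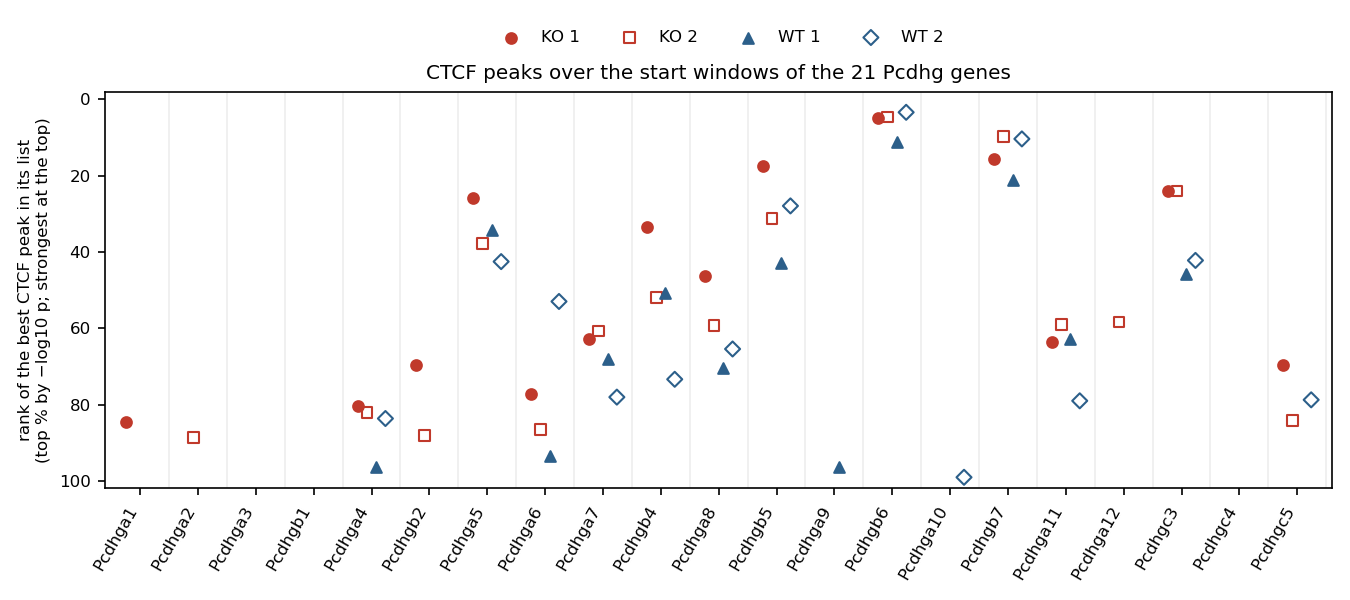
Rank of the best CTCF peak over each Pcdhg start within its own list (y axis, top % by the authors' −log10 p, strongest at the top) for the 21 Pcdhg genes in genomic order (x axis), with KO left of WT within each gene. Pcdhgb6 stands highest, between 3.42 and 11.3%, and genes without a point had no peak.

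The CTCF peaks sat close to the gene starts. Their midpoints had a median distance of 50 and 51 bp past the start in KO and of 77.5 and 48.5 bp in WT. Within 250 bp of the start lay 14 of 15 and 14 of 16 member peaks in KO and 11 of 14 and 12 of 14 in WT. Of the peaks over other gene starts, 53.7 and 55.5% did so in KO and 54.2 and 52.8% in WT. Pcdhga8 was an exception, since it had a further site 2137 to 2286 bp past its start in all 4 libraries, besides one within 59 bp.

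**Figure D4:**
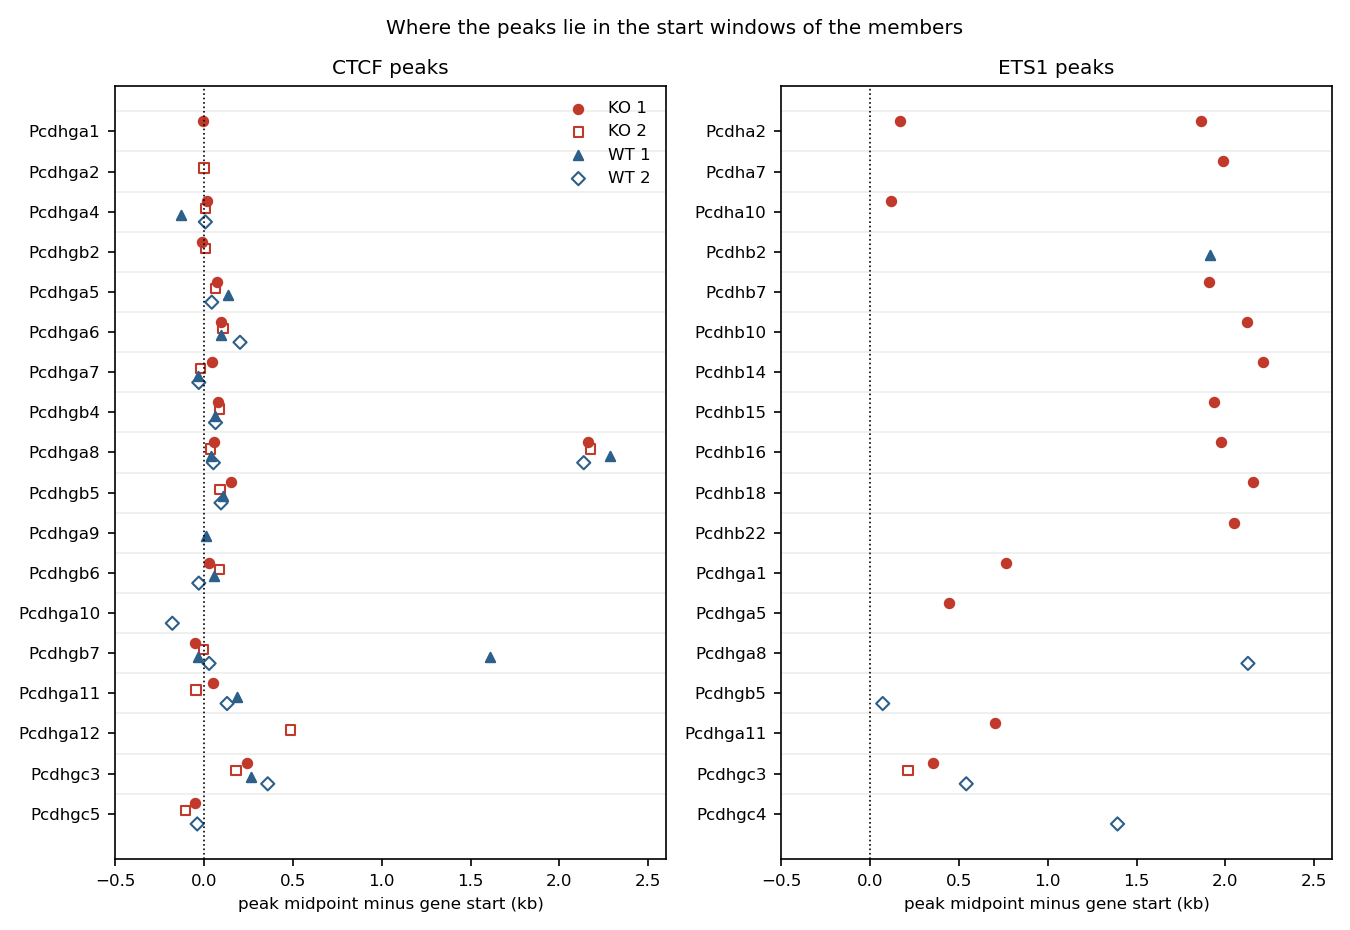
Midpoints of the CTCF peaks (left) and ETS1 peaks (right) relative to the gene start (x axis, kb; dotted line at the start) for each member with a peak (y axis, genomic order from the top); symbols are libraries, with KO above WT within a gene. CTCF points gather at the start, whereas the Pcdhb points of ETS1 all lie 1907 to 2213 bp past it.

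These CTCF starts mostly lacked H3K27ac. Of the 11 members with CTCF in all 4 libraries, 10 had no H3K27ac peak in any library, whereas 10.4% of the 6444 other gene starts with CTCF in all 4 libraries had none. An ETS1 peak in at least 1 library was present at 5 of the 11, against 95.2% of those other starts. H3K27ac was called over 2 members in all, each in 1 KO library. Pcdhgb6 had a peak of 324 bp in KO 2, in the top 14.6% of that list, and none in KO 1, WT 1 or WT 2. Pcdhgc5 had a peak of 148 bp in KO 1, in the top 50.3%, and none in the others. With a peak in only 1 library each, neither member could separate the genotypes in covered length. Of other gene starts with a peak, 48.2% were higher in both KO libraries and 4.32% lower. Those starts include ones called in every library, so these shares cannot be set against the 2 members. Along the cluster, H3K27ac peaks had 0.226 and 0.208 times the density of the rest of the genome in KO and 0.121 times in both WT libraries.

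ETS1 peaks over the members were scattered and rarely repeated between libraries. In at least 1 library 18 of the 57 members had one, against 57.9% of other gene starts, and no member had one in every library, against 29.6%. Of the 18, 17 had it in a single library, so their lengths could not separate the genotypes. Pcdhgc3, called in 3 libraries, had lengths that overlapped. Of other gene starts with an ETS1 peak, 5.51% were higher in both KO libraries and 11.5% lower. Those starts include ones called in every library, so these shares cannot be set against the members. The number of members with a peak was 14 and 1 in KO against 1 and 4 in WT, and 13 of the 14 in KO 1 had no ETS1 peak in another library. The ETS1 list of KO 1 was the longest of the 4 and had the narrowest peaks, with a median width of 264 bp against 408 to 465 bp in the other 3. The part of this library in the result was not tested, but without it the KO value was below that of WT, at 1 member in KO 2 against a mean of 2.5 in WT. With windows of 1 kb on either side of the start, the means were 3.5 members in KO and 1 in WT, compared with 7.5 in KO and 2.5 in WT for the windows used above.

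The exception to this scatter was Pcdhgc3, where ETS1 covered 884 and 349 bp in KO against 0 and 1020 bp in WT and overlapped the CTCF region. Of the Pcdha genes, Pcdha2, Pcdha7 and Pcdha10 had ETS1 peaks, all in KO 1, with 2 of them at Pcdha2. Of the Pcdhb genes, Pcdhb7, Pcdhb10, Pcdhb14, Pcdhb15, Pcdhb16, Pcdhb18 and Pcdhb22 had 1 each in KO 1, and Pcdhb2 had 1 in WT 1. Among the Pcdhg genes, Pcdhga1, Pcdhga5 and Pcdhga11 had one in KO 1, and Pcdhga8, Pcdhgb5 and Pcdhgc4 in WT 2.

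The ETS1 peaks of the Pcdhb genes lay at a common distance from the gene start. All 7 in KO 1 lay 1907 to 2213 bp past the gene start, and the one at Pcdhb2 in WT 1 lay at 1915 bp. In KO 1, 9 of the 15 member peaks, or 60%, lay within 250 bp of a point 2000 bp past the start, against 4.20% of the peaks over other gene starts. That band was drawn after the positions had been seen, and the Pcdhb genes are close relatives, so these peaks are not independent sites. Of the 27 ETS1 regions in the cluster, 33.3% overlapped a CTCF region, and 36.0% of the 25 CTCF regions overlapped an ETS1 region.

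Between the genotypes, CTCF covered somewhat more of the cluster in KO. It covered 8.68 and 8.54 kb in the KO libraries against 8.08 and 7.62 kb in the WT libraries, so the groups did not overlap. The means were 8.61 ± 0.0933 kb in KO (SD over 2 biological replicates) and 7.85 ± 0.329 kb in WT (SD over 2 libraries titled as technical replicates of 1 biological replicate), with a ratio of 1.10 and the smallest p the exact permutation test allows, 0.33. The number of members with CTCF was 14 and 15 in KO against 12 and 13 in WT, also with an exact permutation p of 0.33. The CTCF lists of KO were longer, and CTCF was called at 52.1 and 51.0% of other gene starts in KO against 41.6 and 42.0% in WT. When each list was limited to its 31368 strongest peaks, the difference in covered length turned to −0.119 kb and that in members to −0.5.

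H3K27ac covered 1.98 and 1.82 kb of the cluster in KO against 1.53 and 1.31 kb in WT. The means were 1.90 ± 0.111 kb in KO (SD over 2 biological replicates) and 1.42 ± 0.155 kb in WT (SD over 2 technical replicates of 1 biological replicate), without overlap and with an exact permutation p of 0.33. Most of this length was the single region at Taf7. There the genotypes overlapped, with 1833 and 1500 bp in KO against 1532 and 1313 bp in WT. The rest was a peak of 148 bp at Pcdhgc5 in KO 1 and a peak of 324 bp at Pcdhgb6 in KO 2. At Taf7 alone KO 2 lay below WT 1, so the separation of the groups rested on the Pcdhgb6 peak of KO 2. In the rest of the genome, H3K27ac peaks also covered more in both KO libraries than in both WT libraries. ETS1 covered 5.90 and 0.820 kb in KO against 1.55 and 3.35 kb in WT. The KO libraries lay on both sides of the WT libraries, and the exact permutation test gave p = 1.

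**Figure D5:**
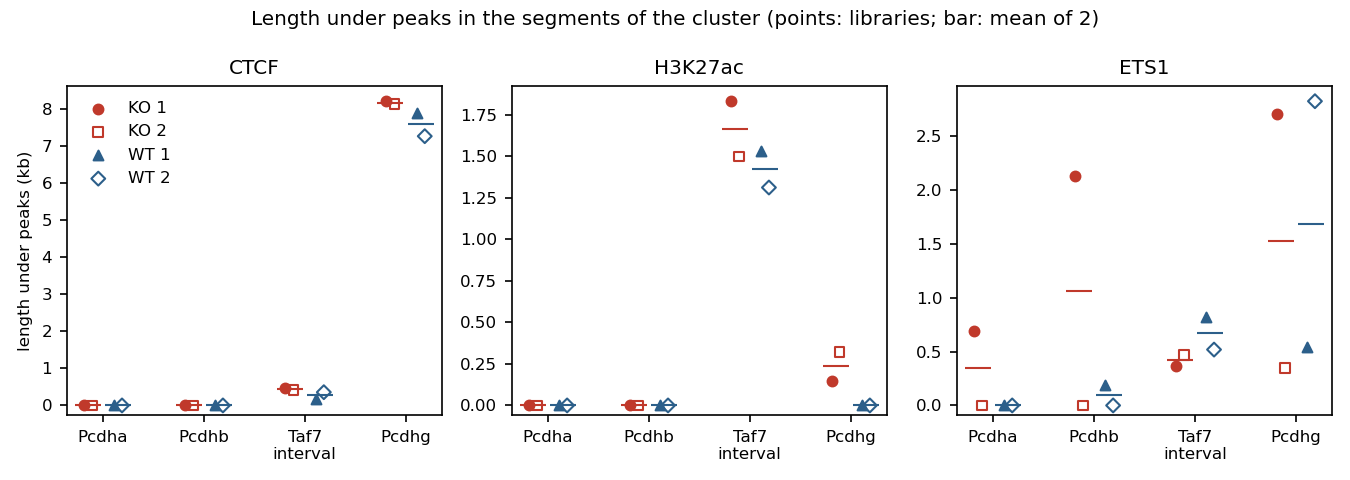
Length under peaks (y axis, kb; its scale differs between panels) in 4 segments of the cluster (x axis), with KO left of WT; points are libraries and bars the mean of 2. CTCF length lies almost wholly in the Pcdhg segment, at 8.20 and 8.13 kb in KO against 7.90 and 7.26 kb in WT, and H3K27ac length in the interval between Pcdhb and Pcdhg that holds Taf7, which for CTCF in KO 1 also takes in the edge of a peak at Pcdhga1.

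At single starts, CTCF length was above both WT libraries in both KO libraries at 5 of the 18 members with a peak, against 59.9% of other gene starts with a peak. It was lower in both KO libraries at 1 of 18, against 1.77%. The 5 were Pcdhgb2, Pcdhga5, Pcdhga7, Pcdhgb4 and Pcdhgb5. Another 5 of the 18 had a peak in only 1 library, so neither order was possible there. Pcdhga5 had 635 and 658 bp in KO against 521 and 530 bp in WT, and Pcdhgb4 had 340 and 371 bp in KO against 321 and 311 bp in WT. Pcdhga7 had 375 and 250 bp in KO against 223 and 228 bp in WT, and Pcdhgb5 had 493 and 496 bp in KO against 423 and 479 bp in WT. Pcdhgc3 was the reverse, with 1150 and 1021 bp in KO against 1180 and 1373 bp in WT.

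The remaining 6 members with CTCF in all libraries had lengths that overlapped between the genotypes. Pcdhgb6 had 687 and 619 bp in KO against 626 and 563 bp in WT. Pcdhgb7 had 911 and 736 bp in KO against 1032 and 666 bp in WT, and Pcdhga11 had 644 and 428 bp in KO against 977 and 515 bp in WT. At each of these genes the spread within a genotype was as wide as the difference between them. Pcdhga4 ranged from 165 to 264 bp over the 4 libraries, Pcdhga6 from 270 to 500 bp and Pcdhga8 from 382 to 617 bp. Pcdhgc5 had 498 and 284 bp in KO against 0 and 421 bp in WT.

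Merged over the 4 libraries, the cluster held 25 CTCF regions, of which 14, or 56.0%, were called in all libraries, against 53.0% of the genome's 47584 regions. A single region was called in both KO libraries and no WT library, which is 4.00% against 8.61% for the genome, and none in both WT libraries alone, against 0.580%. The KO-only region lay over Pcdhgb2, at chr18:37689724-37690011, and covered 249 and 288 bp in KO. It ranked low, in the top 69.7% of KO 1 and the top 88.2% of KO 2, and was lost when lists were limited to equal length. Leaving out any 1 library raised the number of KO-only regions to between 2 and 4. This loosens the rule, so the number could not fall. At the far end of the Pcdhg genes, a region at chr18:37841264-37841651 was called in KO 1, KO 2 and WT 1. Of the 3 H3K27ac regions 1 was in all libraries, against 44.0% of the genome's, and of the 27 ETS1 regions 1 was, against 11.9%. No region of the cluster was KO-only or WT-only for H3K27ac, against 7.10 and 2.70% of the genome's, or for ETS1, against 0.518 and 1.12%.

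Around the cluster, 18 protein-coding genes lie between its ends or within 200 kb of them, each taken with 10 kb on either side, so that neighbours share peaks. H3K27ac length was higher in both KO than in both WT libraries at 12 of the 18, against 54.0% of all genes with a peak, and lower at none, against 6.37%. Before the Pcdha genes, Hars, a histidyl-tRNA synthetase gene, had 4.20 and 4.07 kb in KO against 3.51 and 2.83 kb in WT. Hars2, its mitochondrial counterpart, had 3.02 and 2.25 kb in KO against 2.11 and 1.96 kb in WT, and Zmat2, a splicing-factor gene, had 1.40 and 1.04 kb in KO against 0.868 and 1.03 kb in WT. Slc25a2 shared the values of Taf7. The gene models Gm37013, Gm38666 and Gm38667 span from the Pcdha to the Pcdhg genes and shared the H3K27ac values of the whole cluster.

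Beyond the Pcdhg genes, H3K27ac at Diaph1 covered 3.67 and 2.38 kb in KO against 3.49 and 2.35 kb in WT, which overlapped. Hdac3, a histone deacetylase gene, had 2.24 and 1.63 kb in KO against 1.52 and 1.57 kb in WT, and Rell2, of the TNF-receptor-related RELT family, had 1.06 and 0.552 kb in KO against 0.589 and 0.547 kb in WT. CTCF length was higher in both KO libraries at 8 of the 18, against 56.3% of all genes with a peak, and lower at none, against 3.02%. For ETS1 the counts were 5 higher and 2 lower, against 3.86 and 7.47%. The 5 were the neighbours Wdr55, Dnd1, Hars, Hars2 and Zmat2, of which Wdr55 and Dnd1 had the same values. The 2 were Slc25a2 and Taf7, also with the same values. Gm37013, Gm38666 and Gm38667, which shared their values, each count among the higher genes for H3K27ac and for CTCF. These counts are therefore not of separate sites.

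The genes of 22 proteins known to act on the cluster in other cells were listed, which comprise CTCF, cohesin and its loaders and release factors, and silencing factors. All 22 had a peak of each antibody within 10 kb in at least 1 library, as did 60.7% of all protein-coding genes for H3K27ac, 73.4% for CTCF and 75.3% for ETS1. Not all of them had one in both genotypes. CTCF near Rad21 covered 0.455 and 0 kb in KO and 0 kb in both WT libraries, and CTCF near Mau2 covered 0.401 and 0.468 kb in KO and 0 kb in both WT libraries. ETS1 near Rad21 covered 0 kb in both KO libraries against 0 and 0.676 kb in WT. H3K27ac length was higher in both KO libraries at 15 of the 22, against 54.0% of all genes with a peak, and lower at none, against 6.37%. The median log2 ratio of KO over WT, with 1 kb added to each mean, was 0.26 for the list and 0.18 over all genes with a peak. CTCF length was higher at 16 of the 22, against 56.3% of all genes with a peak, and lower at none, against 3.02%, with medians of 0.31 and 0.21. ETS1 length was higher at 1, against 3.86%, and lower at 2, against 7.47%, which are near the background, with medians of −0.10 and 0.04.

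For H3K27ac, Ctcf itself had 4.40 and 4.44 kb in KO against 3.58 and 2.99 kb in WT. Rad21, a cohesin subunit gene, had 5.59 and 5.09 kb in KO against 2.84 and 3.34 kb in WT, and Smchd1, whose product keeps clustered genes silent, had 6.14 and 7.17 kb in KO against 4.60 and 3.93 kb in WT. Wapl, which encodes the cohesin release factor, differed little, with 1.49 and 1.50 kb in KO against 1.45 and 1.46 kb in WT. Stag2, another cohesin subunit gene, overlapped, with 3.39 and 3.98 kb in KO against 3.01 and 3.99 kb in WT.

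The greatest ratio among the other regulators was at Dnmt1, the maintenance DNA methyltransferase gene, with 23.4 and 28.5 kb in KO against 11.8 and 13.6 kb in WT and a log2 ratio of 0.98. It was followed by the cohesin loader gene Mau2 at 0.84, the co-repressor gene Trim28 at 0.60, the zinc-finger gene Wiz at 0.47 and the cohesin subunit gene Smc1a at 0.38. In all 5 both KO libraries were above both WT libraries. The Dnmt1 start window, placed at the edge of the annotated gene, held no peak of the 3 antibodies in any library. Inside the gene H3K27ac covered 21.908 and 27.021 kb in KO against 10.138 and 12.031 kb in WT. Whether that window covers the start used in these cells was not tested, so it does not show a promoter without H3K27ac. No gene was tested on its own, and the ratios were not recomputed with lists of equal length.

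Of 12 protocadherin genes elsewhere in the genome, 2 had an H3K27ac peak within 10 kb in at least 1 library, against 60.7% of all protein-coding genes. A CTCF peak lay near 5, against 73.4%, and an ETS1 peak near 10, against 75.3%, the last being near the background. For 9 of them a start could be placed, and none of these starts had H3K27ac. Pcdh1, Pcdh12 and Pcdh11x were left out. As Pcdh1 and Pcdh12 were the 2 genes with H3K27ac nearby, this absence was fixed by which genes could be placed. Of these 9 starts, CTCF was called at that of Pcdh7 alone, over 290 bp in KO 1 and in no other library. Inside the Pcdh1 gene, whose start was not placed, CTCF covered 3.318 and 2.033 kb in KO against 2.852 and 2.315 kb in WT. ETS1 at the Pcdh7 start covered 0 and 326 bp in KO against 1247 and 1931 bp in WT. Both WT libraries were above both KO libraries, as at 11.5% of other gene starts with an ETS1 peak. With 10 kb flanks the genotypes overlapped at Pcdh7, at 1.338 and 0.604 kb in KO against 1.247 and 2.003 kb in WT. At Pcdh17 ETS1 covered 158 and 0 bp in KO against 0 and 408 bp in WT. It covered 979 bp at Pcdh19 and 142 bp at Pcdh15, both in KO 1 only, and 274 bp at Pcdh10 in WT 1 only.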

How the data were processed

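Peak lists of 14 libraries were used. Per the submitters' processing notes, BWA and GRCm38 were used for alignment. The deposited lists have 9 columns and no header, and their peak names follow MACS2 broad peaks. By that layout the authors' score is derived from the q-value, the authors' fold value is a ratio over background, and the deposited −log10 p and −log10 q come from the peak caller. Caller options and duplicate removal are not stated in these sources. Lists were called per library.

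Genes came from a RefSeq table of GRCm38, which has no strand or exons. Pcdha and Pcdhg genes share their upper ends, so the lower edge was taken as the start, and Pcdhb genes were read the same way. Windows of 3.0 kb stood in for start exons. The promoter table has no chromosome 18 and gave strand for 17492 other genes, whose starts were also read from the gene table. Peaks were merged at 1 bp of overlap. Density used the span to the last annotated gene of each chromosome, 2721.8 Mb in all. Exact permutation tests compared 4 libraries per antibody. Code was tested on simulated intervals, in Python 3.11.15 with NumPy 2.4.6, pandas 2.3.3 and matplotlib 3.10.9.

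Named genes were the members with a peak, the ends of each subcluster, non-members inside the span and the nearest 3 on each side, the regulators Ctcf, Rad21, Smchd1, Stag2, Wapl and up to 5 others by log2 ratio, other protocadherins with a peak at the start, and merged regions present in both libraries of KO or of WT. Members and lists were chosen with earlier results of these data known. Stricter and equal-length lists, other windows, overlaps, gaps and edges, and leaving out each library were tried.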

Additional observations from a re-analysis of the deposited data

How the results depend on the processing

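Of 150 alternatives, 123 were classed as the same, 20 as moved and 7 as reversed. A difference between genotypes was the same if its sign held. A count was the same if equal or within a factor of 1.5. A density ratio was the same if its shift was below the SD over libraries. With lists of equal length (24581 H3K27ac, 31368 CTCF and 9344 ETS1 peaks), the KO minus WT differences for CTCF reversed, at −0.119 kb of covered length, −1.5 peaks and −0.5 members. Those for ETS1 became −0.584 kb, 0 peaks and 0 members, and no CTCF region was KO-only. In the upper 50% of each list, 5 members kept CTCF in all libraries (Pcdhga5, Pcdhgb5, Pcdhgb6, Pcdhgb7 and Pcdhgc3), and the mean density of the cluster over that of the rest of the genome was 0.282 for H3K27ac, against 0.169 with all peaks, and 1.12 for CTCF, against 1.50. With windows of 1 kb on either side of the start, the ETS1 difference in members was 2.5, against 5. With equal lengths 9 members kept CTCF in all libraries. The cause was not tested.

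Leaving out 1 library at a time, the ETS1 differences ranged from −1.63 to 3.45 kb, from −2.5 to 16.5 peaks and from −1.5 to 11.5 members, the lowest of each being without KO 1. Members with ETS1 in every library numbered 0 to 1 and ETS1 regions in all libraries 1 to 2. KO-only regions numbered 0 to 1 for H3K27ac, 2 to 4 for CTCF and 0 to 19 for ETS1, and WT-only regions 0 to 2 for CTCF and 0 to 4 for ETS1. Leaving out a library loosens the rules for KO-only regions, WT-only regions and members in every library, so these counts could not fall. With other gene starts read from the promoter table, an alternative chosen after seeing the data, CTCF was called at 36.8% of them in every library and ETS1 at 30.0%. No paired analysis was possible because the replicate numbers count technical replicates in WT and biological replicates in KO, and the differences come from values per library, not from a fitted model. Depth is unknown, so a missing peak may lie below what the calling could detect.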
